A study of Homo sapiens with 15 samples.

Results

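The genes described here encode subunits of the proteasome, the protease that degrades ubiquitin-tagged proteins in the cytosol and nucleus. They were chosen by symbol as every row of the deposited expression table that begins PSMA, PSMB, PSMC or PSMD followed by a number, with pseudogenes left out. Of 12261 genes in the table, 35 matched. PSMC3IP, a cofactor of meiotic recombination that is no proteasome subunit, is accounted for separately, which leaves 34 genes. These were 15 core particle subunits, 17 regulatory particle subunits and 2 assembly chaperones of the regulatory particle. PSMA8, PSMB8, PSMB9, PSMB11 and PSMD5 were not analysed here.

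HEK-293 Trex cells are a human embryonic kidney line, established in culture, in which doxycycline switches on a transgene. For this study they expressed CLIP-tagged UPF1 isoform 1 (UPF1-1), CLIP-tagged UPF1 isoform 2 (UPF1-2) or a GFP control, and all received 200 ng/mL doxycycline. UPF1 is an RNA helicase that binds transcripts and is needed for nonsense-mediated decay, and its isoforms differ in the length of a regulatory loop in the helicase domain. Sequencing covered the total RNA of the 3 lines and, for both UPF1 lines, the RNA that purified with the tagged protein (IP). There were 5 groups with 3 libraries each, 15 in all. Because every construct had a separate line, line and construct cannot be told apart. No purification from GFP cells was analysed here. The labels number the replicates without saying that they were separate cultures, so p-values measure the spread between these libraries, which may be technical.

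The proteasome consists of a barrel-shaped core capped by regulatory particles. In the core, rings of alpha subunits gate the entrance to rings of beta subunits, 3 of which carry the proteolytic sites. These are PSMB6 (caspase-like), PSMB7 (trypsin-like) and PSMB5 (chymotrypsin-like). The regulatory particle has a base, in which the ATPases PSMC1 to PSMC6 unfold the substrate and PSMD4 binds ubiquitin, and a lid, in which PSMD14 removes ubiquitin. The subunits assemble in fixed ratios, with help from dedicated chaperones. In many cells the transcription factor NFE2L1 raises transcription of subunit genes together when proteasome activity falls.

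The 34 genes had a table row and passed the filter on low values (at least 1 TPM in at least 3 of the libraries fitted) in total RNA and in the IP comparisons, so no member was lost to it. TPM is a transcript abundance scaled by transcript length and library total, so levels can be compared between genes. Each gene has 1 named transcript, and whether other transcripts were summed into its TPM is not stated. A low level may therefore be that of the named transcript and not of the whole gene. UPF1 itself was at 3.24, 3.80 and 8.57 TPM in GFP total RNA, at 106, 94.5 and 186 TPM with UPF1-1 and at 68.9, 72.7 and 171 TPM with UPF1-2. UPF1 was therefore raised in both UPF1 lines, with no overlap with GFP. A level per gene does not show which isoform a line carries. Of 7 HEK-293 markers, the 4 with a row (VIM, KRT8, KRT18 and NEFL) were detected in every library, with VIM at 113 TPM or more. NEFM, PAX2 and LHX1 had no row. None of the 4 markers of other cell types (PTPRC, PECAM1, ALB, COL1A2) had a row. Because HEK-293 markers also lacked rows, a missing row does not by itself show that a cell type is absent. Replicate 3 of every group stood apart from replicates 1 and 2 across genes, as given below for these subunits. The values in the text are log2 differences after library medians were set equal, fitted with limma and the replicate number as a block. Fits without the block are given beside many of them, but not for every call that changes.

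Core transcripts were more abundant than regulatory ones in total RNA. In GFP cells the median over the 15 core subunits was 44.2, 48.9 and 61.3 TPM in replicates 1 to 3, and over the 17 regulatory subunits 18.5, 21.3 and 26.9 TPM. The core median was above the regulatory median in each library. With UPF1-1 the medians were 51.3 ± 8.36 and 25.4 ± 6.13 TPM (mean ± SD over 3 libraries), and with UPF1-2 48.6 ± 11.2 and 22.9 ± 10.2 TPM. In these bulk libraries, fewer transcripts per cell and fewer cells that express a gene cannot be told apart.

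Individual subunits spanned a wide range of levels although they assemble in fixed ratios. PSMD8, a lid subunit, was highest in GFP cells at 109, 119 and 159 TPM. It was followed by 3 beta ring subunits, PSMB4 (110 ± 14.9 TPM), PSMB3 (103 ± 6.53 TPM) and PSMB1 (98.8 ± 7.67 TPM). PSMD8 and PSMB4 overlapped, as did the 3 beta subunits among themselves, and within each GFP library PSMD8 lay above all 3. The alpha ring ran from PSMA4 (80.5 ± 6.06 TPM) to PSMA5 (22.6 ± 1.24 TPM). Among the ATPases, PSMC4 was at 79.0 ± 9.21 TPM and PSMC6 at 11.0 ± 1.18 TPM, with no overlap. The catalytic subunits PSMB6, PSMB5 and PSMB7 lay between 43.7 and 53.8 TPM on average, with overlapping ranges. At the low end were the lid subunits PSMD12 (9.24 ± 0.34 TPM) and PSMD11 (9.05 ± 5.72 TPM) and the chaperone PSMD9 (7.70 ± 1.13 TPM). PSMB10, a catalytic subunit of the immunoproteasome, was lowest at 4.32, 4.88 and 6.85 TPM. By the authors' deposited table, the geometric mean estimated counts of the 34 genes in total RNA ran from 405 to 26453, with medians of 5424 to 5857 in the 3 comparisons.

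**Figure D1:**
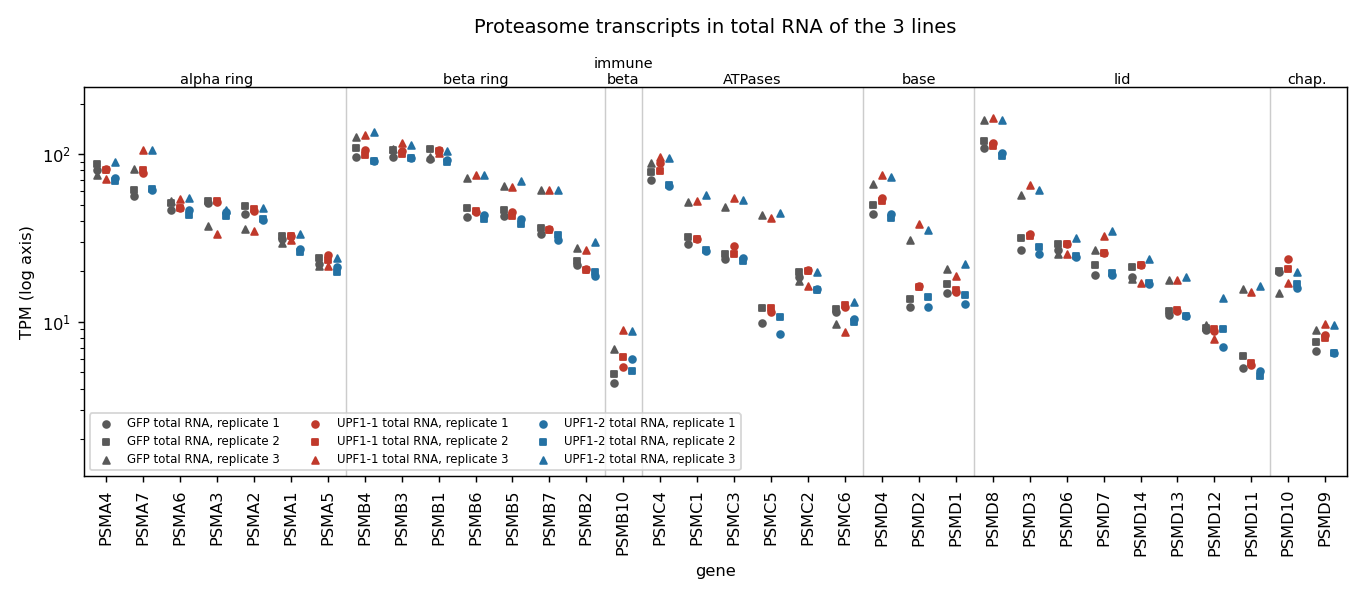
TPM (log axis) of the 34 proteasome genes in each of the 9 total RNA libraries, ordered by role and by mean level in GFP cells. Colours mark the line and symbols the replicate. PSMD8 was highest and PSMB10 lowest in GFP cells, and the triangles of replicate 3 lie apart for PSMC5, PSMD11 and PSMD2 in all 3 lines.

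For some subunits the replicates differed more than the lines. PSMC5, an ATPase, was at 9.80, 12.05 and 43.1 TPM in GFP cells, 11.4, 12.1 and 41.6 with UPF1-1, and 8.48, 10.7 and 44.5 with UPF1-2. Replicate 3 was the high library in each line, and the lines overlapped. After library medians were set equal, replicate 3 exceeded the mean of the other two by 1.39 for PSMC5, 0.88 for PSMD11 and 0.70 for PSMD2, on the log2 scale and averaged over the lines. It was lower by this measure for the alpha subunits PSMA3 (-0.92) and PSMA2 (-0.76). The median over the 34 genes was -0.16, and 1 of 34 exceeded 1, against 3.50% of the 9325 genes tested in total RNA. What distinguished replicate 3 was not tested.

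Few proteasome transcripts differed between the UPF1-1 and GFP lines in total RNA. Of the 34 genes, 3 were higher and 1 was lower than in GFP cells, which is 11.8% of them. Of all genes tested, 16.2% were called, 8.38% higher and 7.79% lower, so the share of the proteasome genes was not above the background. The median difference was -0.05 over the 34 genes (core -0.07, regulatory -0.04) and -0.01 over all genes.

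PSMA7, an alpha ring subunit, rose most. It was at 56.2, 61.0 and 81.6 TPM with GFP and at 76.8, 80.4 and 105 TPM with UPF1-1. The groups overlapped, but UPF1-1 was higher within each of the 3 replicate numbers. The difference was 0.31 ± 0.06 (SE), a 1.24-fold rise, with a limma adjusted p of 0.0093. PSMD2, a scaffold subunit of the base, rose by 0.23 ± 0.07 (limma adjusted p = 0.046). It was at 12.3, 13.6 and 30.6 TPM with GFP and 16.3, 16.2 and 38.5 TPM with UPF1-1. PSMD7, a lid subunit and partner of PSMD14, rose by 0.22 ± 0.06 (limma adjusted p = 0.032), from 18.9, 21.9 and 26.9 TPM to 25.7, 25.8 and 32.4 TPM. Both groups overlapped for PSMD2 and PSMD7, and the rise was present in 3 of 3 replicate numbers. PSMD1, the other scaffold subunit of the base, fell by 0.17 ± 0.05 (limma adjusted p = 0.046). Its deposited TPM were 14.9, 16.8 and 20.7 with GFP and 15.1, 15.4 and 18.8 with UPF1-1. The fall was therefore present in replicate 1 only once library medians were set equal.

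The calls in total RNA rested on the block. Without it, limma gave adjusted p = 0.31 for PSMA7, 1.00 for PSMD2, 0.59 for PSMD7 and 0.85 for PSMD1, and called 0 of the 34 and 16 of all genes. In that unblocked fit 2 of the 34 had an unadjusted p under 0.05. PSMD2 was also lost with upper quartile scaling (limma adjusted p = 0.068), which left 2 higher and 2 lower calls, and with a pseudocount of 0.1 (0.072), and PSMD1 with no filter on low values (0.089). The count was 9, 4 higher and 5 lower, when only the 6 UPF1-1 and GFP libraries were fitted, and it was 1 without replicate 1, 0 without replicate 2 and 3 without replicate 3. In the authors' deposited table no sleuth q-value of the 34 genes was under 0.05 in any of the 3 comparisons of total RNA.

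Most of the remaining subunits lay close to zero in a narrow band. None of the 7 constitutive beta subunits and none of the 6 ATPases was called. The catalytic subunits PSMB5, PSMB6 and PSMB7 differed by -0.11, -0.05 and -0.07. PSMB2, a noncatalytic beta subunit, had a difference of -0.18 ± 0.06 that missed the threshold (limma adjusted p = 0.063). PSMB10 had a difference of 0.23 ± 0.12 (limma adjusted p = 0.21), and the lid subunit PSMD12 of -0.19 ± 0.10 (limma adjusted p = 0.22). PSMC3IP was not called in any of the 6 comparisons.

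UPF1-2 was compared with the same GFP libraries, so the comparisons with GFP are not independent. Against GFP, 0 of 34 proteasome genes were called with UPF1-2 by limma, beside 0.375% of all genes (0.279% higher and 0.0965% lower). At an unadjusted p under 0.05 there were 5 of 34 (14.7%), against 12.1% of all genes. The 34 differences ran from -0.16 for PSMC2 to 0.25 for PSMB10, with 29 below 0 and a median of -0.08. Of the 9325 genes tested, 5231 were below 0, with a median of -0.02. The median over the 34 genes was 0.02, -0.16 and -0.14 in replicates 1, 2 and 3, so replicate 1 showed no fall. For the 4 genes called with UPF1-1, the values with UPF1-2 were 0.15 (PSMA7), 0.05 (PSMD2), 0.04 (PSMD7) and -0.14 (PSMD1). In the direct comparison of UPF1-1 with UPF1-2, limma also called 0 of 34, beside 9.51% of all genes (5.49% higher and 4.02% lower), and 8 of 34 had an unadjusted p under 0.05 (23.5%, against 28.3% of all genes). PSMA7 was 0.17 ± 0.06 higher with UPF1-1 there (limma adjusted p = 0.10), and PSMD7 0.18 ± 0.06 higher (limma adjusted p = 0.078). A difference between the isoforms was thus not established for any subunit in total RNA.

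**Figure D2:**
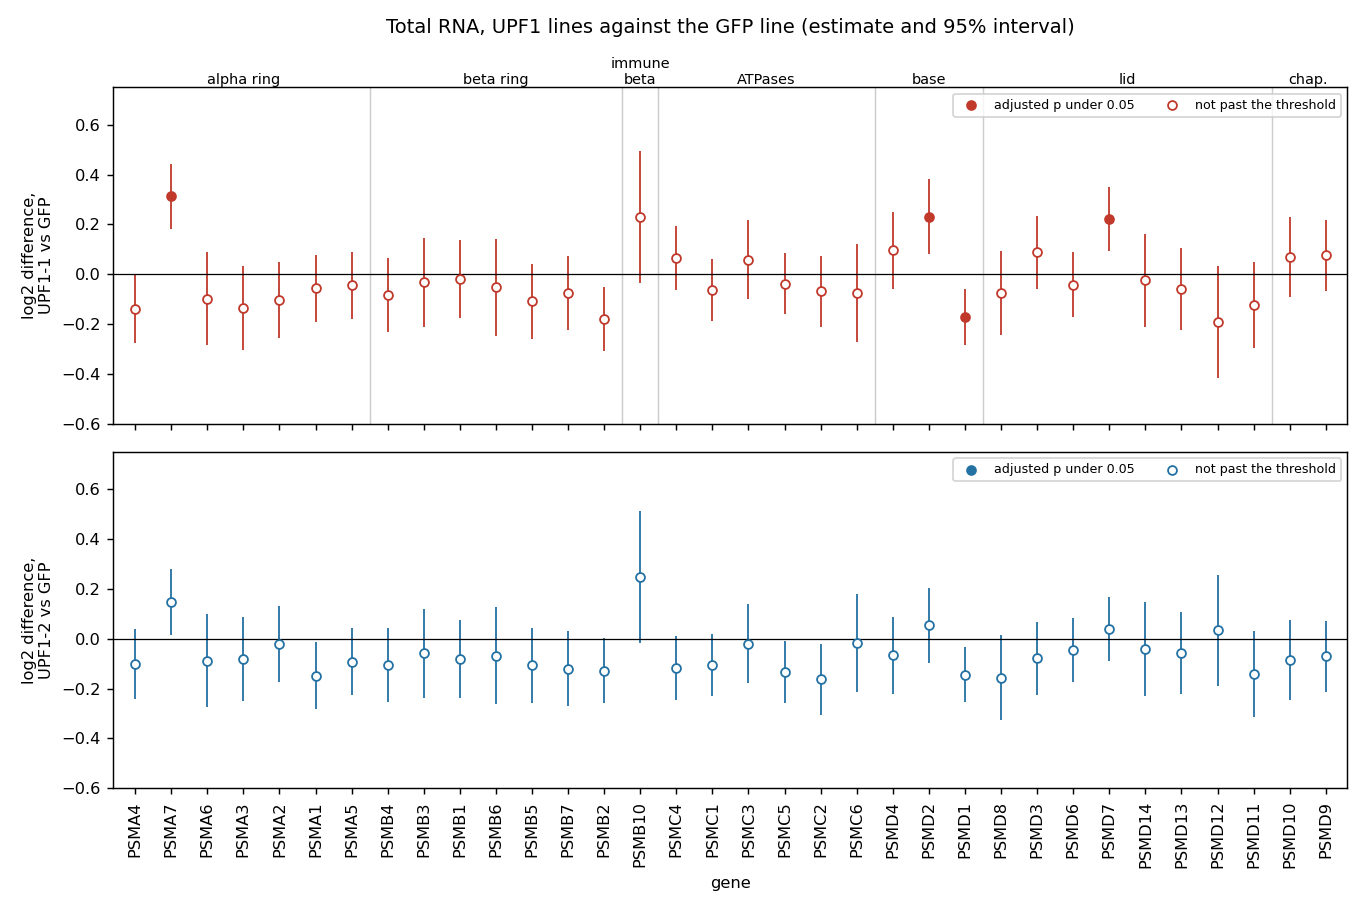
Log2 difference from GFP in total RNA for each of the 34 genes (upper panel UPF1-1, lower panel UPF1-2), with 95% intervals from limma; filled points passed an adjusted p of 0.05. The filled points are PSMA7, PSMD2 and PSMD7 above zero and PSMD1 below it in the upper panel, and the lower panel has none.

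The pathway's other genes were counted from lists. Of 34 genes for further regulatory subunits and bound enzymes, core assembly chaperones, alternative activators, regulators of proteasome genes, and ubiquitin genes and shuttles, 4 were higher and 3 lower with UPF1-1 than with GFP, which is 20.6%, beside 16.2% of all genes (8.38% higher and 7.79% lower). PSMF1, which encodes a proteasome inhibitor, rose by 0.43 ± 0.06 (limma adjusted p = 0.0032), the core assembly chaperone PSMG2 by 0.41 ± 0.06, and the ubiquitin receptor ADRM1 by 0.25 ± 0.06. The ubiquitin shuttle UBQLN2 fell by 0.55 ± 0.06, the nuclear activator PSME4 by 0.30 ± 0.06, and DDI2, the protease that processes NFE2L1, by 0.29 ± 0.07. Without the block limma called none of these 7 (lowest adjusted p = 0.30). With UPF1-2 none of the 34 was called against GFP. Between the isoforms, PSMF1 (0.31) and PSMG2 (0.23) were among 4 called higher with UPF1-1, and UBQLN2 was lower (-0.23), again with the block.

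Promoters are shown for the 3 genes past the threshold in total RNA that had one in the RefSeq table (GRCh38.p14). The table held 35 windows for 29 of the 34 genes, PSMA7 not among them, and 2 alternative starts for PSMD2. The window of the second PSMD2 start lies downstream of the first start, so it is not upstream of the whole gene. Each window is the 250 bases before the transcription start, 5′ to 3′ on the gene's plus strand, and capitals mark a match to one of 3 motifs searched on both strands.
PSMD1 (chr2:231056617-231056866): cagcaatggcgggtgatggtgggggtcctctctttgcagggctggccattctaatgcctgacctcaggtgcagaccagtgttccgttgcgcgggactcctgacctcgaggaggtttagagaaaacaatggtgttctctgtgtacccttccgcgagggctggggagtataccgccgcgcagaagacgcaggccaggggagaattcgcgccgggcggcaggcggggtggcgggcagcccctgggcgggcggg
PSMD2, first start (chr3:184298991-184299240): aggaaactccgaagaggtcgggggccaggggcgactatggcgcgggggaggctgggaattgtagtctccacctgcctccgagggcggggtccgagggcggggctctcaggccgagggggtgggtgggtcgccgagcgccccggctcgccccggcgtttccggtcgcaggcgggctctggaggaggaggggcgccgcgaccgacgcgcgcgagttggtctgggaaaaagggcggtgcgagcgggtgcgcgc
PSMD2, second start (chr3:184300331-184300580): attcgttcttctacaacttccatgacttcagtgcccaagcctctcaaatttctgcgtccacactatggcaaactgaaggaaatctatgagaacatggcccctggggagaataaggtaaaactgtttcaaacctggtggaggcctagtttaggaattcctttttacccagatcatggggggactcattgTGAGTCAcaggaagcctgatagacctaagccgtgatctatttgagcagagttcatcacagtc
PSMD7 (chr16:74296564-74296813): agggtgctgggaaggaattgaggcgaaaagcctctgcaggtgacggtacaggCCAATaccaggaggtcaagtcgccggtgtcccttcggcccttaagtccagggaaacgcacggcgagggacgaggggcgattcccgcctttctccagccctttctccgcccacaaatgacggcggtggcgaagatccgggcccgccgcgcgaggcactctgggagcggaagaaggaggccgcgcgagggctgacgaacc
The motifs were TGACNNNGC, the core of the antioxidant response element that NFE2L1 and NFE2L2 recognise with MAF partners, TGAGTCA, the AP-1 type site, and CCAAT. The second PSMD2 window, downstream of the first PSMD2 start, held TGAGTCA from 62 to 56 bases before its own start. In the PSMD7 window CCAAT lay from 198 to 194 bases before the start. Neither the PSMD1 window nor the first PSMD2 window held a match. Over the 35 proteasome windows, 6 (17.1%) held TGACNNNGC, 3 (8.57%) TGAGTCA and 15 (42.9%) CCAAT. Over all 35116 windows of that length the shares were 10.9%, 4.20% and 32.0%. PSMC5 and PSMD9 held both of the first 2 motifs, which can match the same letters on opposite strands. A match describes the letters of a window and shows no binding.

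Most proteasome transcripts were recovered with UPF1 below the level of the typical gene. Recovery is the log2 ratio of IP to total RNA within a line, after library medians were set equal. It is therefore relative to the typical gene of the table, with a median of -0.16 over all genes with UPF1-1 and -0.15 with UPF1-2. With UPF1-1, 30 of 34 proteasome genes were lower in the IP and 2 higher, beside 43.9% lower and 30.8% higher among all genes tested, or 74.7% called. With UPF1-2, 26 were lower and 3 higher, beside 44.2% and 31.5%, or 75.7% called. The median recovery of the 34 genes was -0.96 with UPF1-1 and -0.60 with UPF1-2. Without the block limma called 24 and 19 of the 34, beside 51.8% and 54.2% of all genes.

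The reference matters for these signs. The listed genes together held 15.8 ± 1.77% of the TPM total in UPF1-1 total RNA and 54.2 ± 13.7% in its IP, and 14.6 ± 3.80% and 54.6 ± 13.2% with UPF1-2. What makes up the rest was not analysed here. With TPM as deposited, without equal medians, the median gene had a log2 ratio of IP to total RNA of 2.40 with UPF1-1 and 2.38 with UPF1-2, and all 34 proteasome genes were above 0 and called higher with each isoform. Measured from the median gene, the median of the 34 was -0.80 with UPF1-1 and -0.44 with UPF1-2, and setting medians equal cannot change these values. They depended on the pseudocount: with 0.1 in place of 0.5 TPM they were -1.11 and -0.73, and with 1 TPM -0.56 and -0.20. With 1 TPM, 2 and 3 of the called genes changed sign relative to the median gene.

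PSMB10 and PSMA7 were the least recovered of the 34 with both isoforms. PSMB10 was at 5.34, 6.21 and 8.94 TPM in UPF1-1 total RNA and 6.62, 9.98 and 11.5 TPM in the IP, a recovery of -2.13 ± 0.15 (limma adjusted p = 4.8e-06). With UPF1-2 it was at 6.01, 5.07 and 8.84 TPM and 7.83, 7.12 and 15.7 TPM, a recovery of -2.00 ± 0.15. The TPM groups overlapped, while the recovery was -1.66 or lower in each of the 6 replicate pairs. PSMA7 rose only from 76.8, 80.4 and 105 TPM to 103, 100 and 160 TPM in the UPF1-1 IP, a recovery of -2.11 ± 0.07 (limma adjusted p = 1.4e-07). With UPF1-2 it went from 61.4, 62.3 and 106 TPM to 109, 103 and 151 TPM, a recovery of -1.84 ± 0.07. Relative to the equalised medians, PSMA7 was 4.33-fold lower in the UPF1-1 IP and 3.58-fold lower in the UPF1-2 IP.

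Other low recoveries were of the catalytic subunit PSMB6 and the ATPase PSMC5 with UPF1-1. PSMB6 was at 45.0, 45.8 and 75.3 TPM in UPF1-1 total RNA and 73.6, 79.9 and 146 TPM in the IP, a recovery of -1.75 ± 0.08. With UPF1-2 it was at 43.4, 40.9 and 74.7 TPM and 116.6, 102 and 174 TPM, a recovery of -1.22 ± 0.08. PSMC5 had a recovery of -1.70 ± 0.15 with UPF1-1 and -1.04 ± 0.15 with UPF1-2, its IP being at 23.3, 20.7 and 73.7 TPM with UPF1-1. Without the block PSMC5 kept a limma adjusted p of 0.013 with UPF1-1 but not with UPF1-2 (adjusted p = 0.093). The lid subunit PSMD11 was at 5.10, 4.73 and 16.4 TPM in UPF1-2 total RNA and 12.7, 8.96 and 51.6 TPM in the IP. Its recovery was -1.29 ± 0.20 with UPF1-2 and -1.24 ± 0.20 with UPF1-1, and replicate 3 was the high library in every group. Without the block limma gave PSMD11 adjusted p = 0.073 and 0.086.

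PSMD12 and PSMB2 went the other way. PSMD12, a lid subunit, was at 8.76, 9.06 and 7.93 TPM in UPF1-1 total RNA and 123, 110 and 168 TPM in the IP. With UPF1-2 it was at 7.09, 9.08 and 13.95 TPM and 101, 91.7 and 137 TPM. Its recovery was 1.30 ± 0.09 with UPF1-1 (limma adjusted p = 4.4e-06) and 0.89 ± 0.09 with UPF1-2 (limma adjusted p = 3.8e-05). PSMB2, the only beta subunit above 0, was at 20.8, 20.4 and 26.8 TPM in UPF1-1 total RNA and 211, 217 and 296 TPM in the IP, and at 18.7, 19.8 and 30.01 TPM and 251, 252 and 344 TPM with UPF1-2. Its recovery was 0.82 ± 0.08 and 1.09 ± 0.08. Both genes also passed the threshold without the block. PSMD1 was at 12.7, 14.4 and 22.2 TPM in UPF1-2 total RNA and 106, 95.3 and 177 TPM in the IP, and it was called higher with UPF1-2 (0.36 ± 0.09, limma adjusted p = 0.0054). The call was lost with upper quartile scaling (0.24, limma adjusted p = 0.051), with a pseudocount of 0.1 (0.16, adjusted p = 0.17) and without replicate 1 (0.35, adjusted p = 0.068). Over the alternatives with scaled libraries the value ran from 0.16 to 0.54. Its recovery with UPF1-1 was -0.15 ± 0.09 (limma adjusted p = 0.15). PSMD7 was called with neither isoform (0.13 and -0.12), and PSMA4, PSMD14, PSMC4 and PSMC2 were not called with UPF1-2.

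By role, PSMB10 apart, the constitutive beta ring had the lowest median recovery with each isoform. The median recovery with UPF1-1 and UPF1-2 was -1.42 and -0.97 for the 7 constitutive beta subunits and -0.92 and -0.54 for the 7 alpha subunits. It was -0.74 and -0.29 for the 6 ATPases and -1.21 and -0.58 for the 3 other base subunits. For the 8 lid subunits it was -0.53 and -0.46, and for the 2 chaperones PSMD9 and PSMD10 -0.51 and -0.55. The lid held both extremes of the regulatory particle with UPF1-2, PSMD12 at 0.89 and PSMD11 at -1.29. All 6 ATPases were called lower with UPF1-1 (4 without the block) and 4 of 6 with UPF1-2 (1 without the block). Their UPF1-1 values ran from -1.70 for PSMC5 to -0.39 for PSMC2. Among all genes tested, 43.9% were called lower with UPF1-1 and 44.2% with UPF1-2. Without the block 51.8% of all genes were called with UPF1-1 and 54.2% with UPF1-2, in either direction.

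Core subunits were recovered less than regulatory subunits with each isoform. With UPF1-1 the core median was -1.29 and the regulatory median -0.66, a difference of -0.63. Within replicates 1, 2 and 3 the difference was -0.56, -0.63 and -0.63. With UPF1-2 the medians were -0.91 and -0.41, a difference of -0.49, and within replicates -0.56, -0.48 and -0.30. Core lay below regulatory in all 6 replicate pairs. All 15 core subunits were called with UPF1-1 (14 lower) and 14 of 15 with UPF1-2 (13 lower), against 15 of 17 (14 lower) and 13 of 17 (11 lower) regulatory subunits. Of all genes tested, 74.7% were called with UPF1-1 (43.9% lower) and 75.7% with UPF1-2 (44.2% lower). The share of regulatory subunits called with UPF1-2, 76.5%, was near that of all genes. Without the block the counts were 12 and 11 of 15 core subunits and 11 and 7 of 17 regulatory subunits. The shares of all genes called were then 51.8% and 54.2%. No test was made of these medians. In total RNA the corresponding differences of medians from GFP were -0.03 and -0.02.

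**Figure D3:**
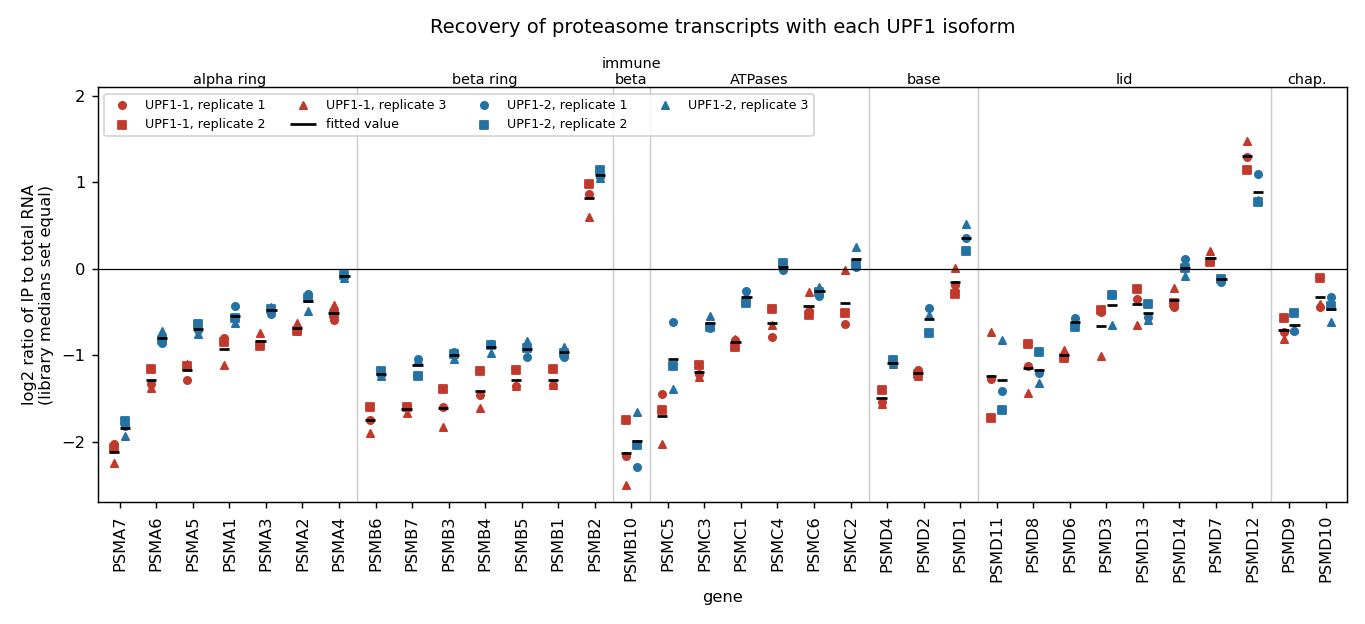
Log2 ratio of IP to total RNA for each of the 34 genes, with library medians set equal, shown for each replicate number (symbols) with UPF1-1 (red) and UPF1-2 (blue); black bars are the fitted values. Most genes lie below zero, PSMB2 and PSMD12 lie above it with both isoforms, and the blue points lie above the red for most core and base subunits but not for most of the lid.

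Transcript length moved with recovery. An effective length relative to the median gene was estimated from the authors' deposited mean natural log estimated counts and TPM in total RNA. Whether it covers only the named transcript of a gene, or others summed with it, is not stated. By this measure 29 of the 34 transcripts were shorter than the median gene, with a median of 0.479 of its length. Core transcripts had a median of 0.339 and regulatory transcripts of 0.575. PSMB10 was shortest at 0.197. Of the 5 above 1, PSMD12 (1.33), PSMB2 (1.08) and PSMD1 (1.06) were among the best recovered, while PSMD9 (1.13) and PSMD2 (1.52) were not, PSMD2 having recoveries of -1.21 and -0.58.

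Across the 34 genes, recovery correlated with log2 length at Pearson r = 0.64 and Spearman rho = 0.63 with UPF1-1, and at 0.62 and 0.54 with UPF1-2. Within the 29 genes shorter than the median gene the values were 0.58 and 0.59, and 0.52 and 0.46. Within the 17 regulatory subunits alone Pearson r was 0.50 and 0.53, and within the 15 core subunits 0.70 in each case, with rho at 0.46. Across 11927 genes Pearson r was 0.52 and 0.54. All genes shorter than the median had a median recovery of -0.59 and -0.61, and longer ones of 0.15 and 0.16. Genes are not independent replicates, and length and recovery both use the total RNA libraries, so these are descriptions. The part of length in the core and regulatory difference was not tested.

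**Figure D4:**
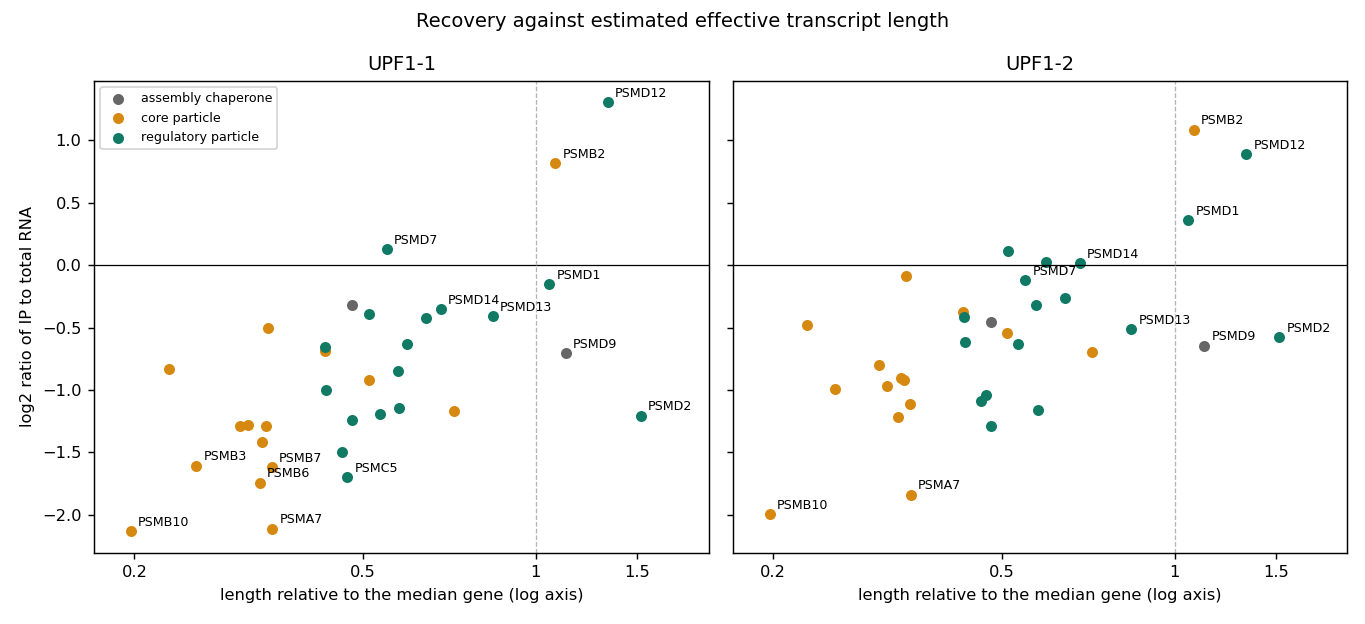
Recovery (log2 ratio of IP to total RNA, library medians set equal) against effective transcript length relative to the median gene (log axis) for the 34 genes, with UPF1-1 (left) and UPF1-2 (right), coloured by particle. Recovery is higher for longer transcripts (Pearson r = 0.64 and 0.62), and PSMD2 and PSMD9 lie low among the longest.

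Related gene lists place these values. All 75 cytosolic ribosomal protein genes with a row were lower in the IP with both isoforms, with medians of -2.53 and -2.33, below those of the proteasome. The 8 subunits of the chaperonin CCT, another multi-subunit cytosolic complex, had medians of -0.66 and -0.13, with 7 and 3 called lower and 1 called higher with UPF1-2 (CCT5, 0.18). Of the 34 other pathway genes, UPF1-1 gave 18 lower and 7 higher calls, and UPF1-2 gave 17 lower and 9 higher. These are 73.5% and 76.5% of the list, next to 74.7% and 75.7% of all genes. Limma without the block called 17 and 22 of the list, and 5 and 2 of the CCT subunits. The shares of all genes were then 51.8% and 54.2%. Recoveries of SHFM1, a small lid subunit, were -2.20 and -2.13, of the chaperone PSMG4 -2.15 and -2.08, and of the activator subunit PSME1 -2.12 and -1.78. The deubiquitinase USP14, which docks on the base, was higher in the IP at 1.38 ± 0.12 and 1.47 ± 0.12, with limma adjusted p = 0.069 and 0.054 without the block. DDI2 was also higher, at 1.00 and 0.95. NFE2L1 was lower with UPF1-1 (-0.64 ± 0.16) and not called with UPF1-2.

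The isoforms differed in how well they recovered proteasome transcripts when the block and equal medians were both used. The difference in recovery, UPF1-1 minus UPF1-2, passed the threshold for 14 of 34 genes, all 14 lower with UPF1-1. Among all genes tested 10.7% were called, 6.27% lower and 4.43% higher. The median difference was -0.37 over the 34 genes, -0.38 over the core and -0.38 over the regulatory particle, against -0.04 over all genes. Replicates 1 and 2 had a median over the 34 genes of -0.43 and -0.34, and replicate 3 of -0.40.

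Of the 14 calls, 7 were in the core, 6 in the base and 1 in the lid. PSMC4, an ATPase, was at 280, 303 and 441 TPM in the UPF1-1 IP and 404, 388 and 531 TPM in the UPF1-2 IP, against 88.0, 79.2 and 96.2 TPM and 64.9, 65.6 and 94.8 TPM in total RNA. Its recovery was -0.63 with UPF1-1 and 0.03 with UPF1-2, a difference of -0.66 ± 0.11 (limma adjusted p = 0.017). The scaffold subunit PSMD2 was at 40.0, 37.3 and 118 TPM in the UPF1-1 IP and 57.9, 48.6 and 134 TPM in the UPF1-2 IP, with a difference in recovery of -0.63 ± 0.11. PSMB3, a noncatalytic beta subunit, was at 189, 200 and 235 TPM and at 305, 269 and 302 TPM, without overlap between the IPs. Its difference in recovery was -0.61 ± 0.13. The ATPase PSMC3 was at 67.0, 62.4 and 167 TPM and at 95.01, 82.5 and 202 TPM, with a difference of -0.56 ± 0.10. Each of these 4 differences was negative in 3 of 3 replicate numbers, and the limma adjusted p of the other 3 lay between 0.017 and 0.025.

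The remaining 10 called genes were the alpha subunits PSMA4, PSMA5 and PSMA6, the beta subunits PSMB4, PSMB6 and PSMB7, the ATPase PSMC1, the base subunits PSMD1 and PSMD4, and the lid subunit PSMD6. All 15 core subunits had a difference below 0, 7 of them called. Of the 11969 genes tested, 6624 were below 0, and 10.7% were called. Of the 9 base genes 6 were called, with a median of -0.52. The ATPases PSMC5 (-0.66), PSMC2 (-0.50) and PSMC6 (-0.16) were not called, although PSMC4, which was called, had the same rounded value as PSMC5. The lid had a median of 0.03, with 1 of 8 called. Its subunits PSMD12 (0.42 ± 0.13, limma adjusted p = 0.080) and PSMD7 (0.25 ± 0.09, limma adjusted p = 0.12) were on the other side of zero and missed the threshold. Whether the lid differed from the other roles was not tested. The core and regulatory medians differed by 0.005 here, and across the 34 genes the isoform difference correlated with log2 length at Pearson r = 0.24 and Spearman rho = 0.15.

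This result needed the block, equal medians and all but the third replicate number. Limma called 0 of the 34, and 0 of all genes, without the block (7 of 34 with an unadjusted p under 0.05), without equal medians (14 of 34), without replicate 1 (12 of 34) and without replicate 2 (19 of 34). Without replicate 3 it called 17. The median difference over the 34 genes was -0.37 without replicate 1, -0.40 without replicate 2 and -0.39 without replicate 3. Of the 8 CCT subunits, 7 were also lower with UPF1-1 than with UPF1-2, with a median of -0.52. Of the 34 other pathway genes 5 were lower, among them UBA1 (-0.95), UBB (-0.59), VCP (-0.59) and PSMG1 (-0.38), and RAD23B was higher (0.39). UBB encodes polyubiquitin, UBA1 the ubiquitin-activating enzyme and VCP a segregase that feeds ubiquitinated proteins to the proteasome. Among ribosomal protein genes 5 of 75 were called lower, beside 6.27% of all genes. Of these 75 genes, 71 had a difference below 0, with a median of -0.25, against -0.04 over all genes.

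**Figure D5:**
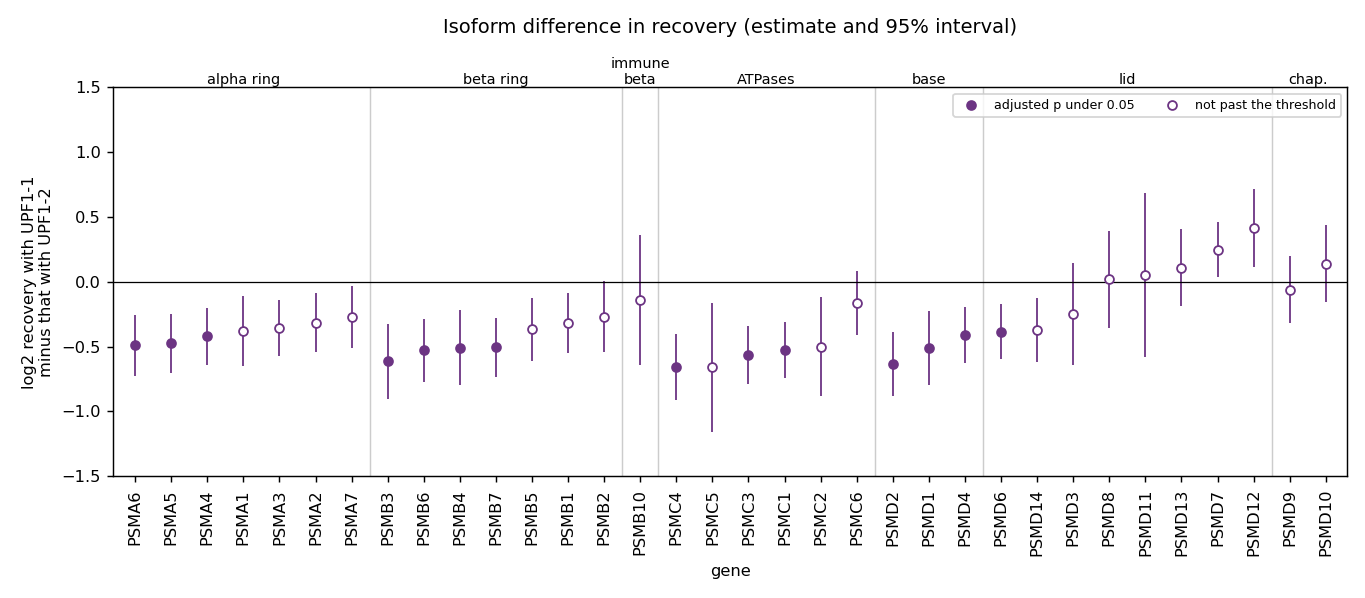
Difference in log2 recovery, UPF1-1 minus UPF1-2, for each of the 34 genes with 95% intervals from limma; filled points passed an adjusted p of 0.05. The 14 filled points are all below zero and lie in the alpha ring, the beta ring and the base, with PSMD6 the one lid subunit among them.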

How the data were processed

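RNA was sequenced after ribosomal RNA depletion and TruSeq library preparation, per the labels' protocols. Cutadapt, kallisto, sleuth and the build hg19 are named in the submitters' processing notes, with no version given in the sources used here. The authors' deposited table gave TPM for each of 15 libraries and names 1 transcript per gene; whether other transcripts were summed into it is not stated. Its deposited ratio columns equalled IP over total TPM of the same replicate number in 100% of entries (within 1e-06), and were not used further. Sleuth q-values and p-values and mean natural log estimated counts are the authors' deposited values, per the file headers. Natural log effects and log2 fold columns deposited by the authors were not used. The table held no coordinates, and TPM gives no depth per library.

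TPM plus 0.5 was log2 transformed, library medians were set equal, and limma 3.58.1 (R 4.3.3) was fitted with a trend to genes that reached 1 TPM in 3 or more of the libraries fitted. A fold change on this scale understates the change of low genes. For total RNA, 9325 genes in 9 libraries were fitted, with the replicate number as block. The IP fit used 12 libraries and 11969 genes, with isoform and number as block, and its interaction gave the isoform difference. Two-sided p-values were adjusted over all genes of a fit by the Benjamini-Hochberg method, with a threshold of 0.05. With 3 libraries a group, SDs are over 3 values. The block by replicate number was chosen from the data and from the deposited ratios. Deviations of same-numbered libraries from their group means correlated at r = 0.70 to 0.95 in total RNA (9 pairs). In the IP fit they correlated at 0.57 to 0.91 (18 pairs). Numbers 1 and 2 also correlated with each other (0.59 to 0.80), which overlaps these ranges, and number 3 ran against both (-0.89 to -0.68). The block therefore mainly separates number 3, and these correlations do not show a pairing of numbers 1 and 2. Scripts were tested on simulated data. Alternatives were the fit without the block, other scalings, pseudocounts of 0.1 and 1, no filter, leaving out each replicate number, and only the libraries compared. The members and lists were chosen with earlier results of these data known. All members could be named; values per library are given for the 4 largest rises and falls past the threshold in each comparison, the best and least recovered core and regulatory subunits, and the highest and lowest in GFP cells. Other pathway genes are named where past the threshold, apart from some that are not reported here.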

Additional observations from a re-analysis of the deposited data

Results flagged for a closer look

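The recovery of 14 proteasome transcripts differed between the isoforms by the interaction test in limma (12 libraries, with the block). The difference in log2 recovery, UPF1-1 minus UPF1-2, was -0.42 for PSMA4, -0.47 for PSMA5 and -0.49 for PSMA6 in the alpha ring. In the beta ring it was -0.61 for PSMB3, -0.51 for PSMB4, -0.53 for PSMB6 and -0.51 for PSMB7. Among the ATPases it was -0.52 for PSMC1, -0.56 for PSMC3 and -0.66 for PSMC4. It was -0.51 for PSMD1, -0.63 for PSMD2 and -0.41 for PSMD4 in the base, and -0.38 for PSMD6 in the lid. Each was negative in 3 of 3 replicate numbers, and 0 of the 14 passed without the block. No group held enough libraries for a check of single outlying samples.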

How the results depend on the processing

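Without the replicate block, limma called 0 of the 34 genes for UPF1-1 against GFP (4 with it), 24 and 19 for the IPs (32 and 29), and 0 for the isoform difference (14); without equal medians as well, 0, 30, 31 and 0, the IP calls all being higher. Without equal medians but with the block the counts were 1, 34, 34 and 0, again higher in the IPs. In those fits without equal medians the IP ratios reversed to 0.45 for PSMA7, 0.82 for PSMB6, 0.43 for PSMB10 and 0.86 for PSMC5 with UPF1-1, and to 0.69 for PSMA7, 1.31 for PSMB6, 0.53 for PSMB10 and 1.24 for PSMD11 with UPF1-2, as the scale shifts every gene of a comparison alike. Leaving out each replicate number in turn gave 0 to 3 calls for UPF1-1 against GFP and 0 to 17 for the isoform difference. The core minus regulatory median then ran from -0.63 to -0.52 with UPF1-1 and from -0.55 to -0.40 with UPF1-2. Fitting only the libraries compared gave 9 for UPF1-1 against GFP; the isoform difference has no such fit. Upper quartile scaling kept 3 of the 4 calls for UPF1-1 against GFP, lost PSMD2 and added PSMB2 as lower, giving 2 higher and 2 lower (3 and 1 with equal medians).

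Over all genes the counts in total RNA and for the isoform difference were as unstable. The IP counts changed less when the block was left out, from 8942 to 6200 with UPF1-1 and from 9065 to 6491 with UPF1-2. Without equal medians but with the block the IP counts were 11614 and 11613, of which 11464 and 11485 were higher. UPF1-1 against GFP gave 1507 with the block, 16 without it, 301 without equal medians, 2 with neither, 206 to 1141 when a number was left out, and 2556 from the compared libraries alone. UPF1-2 against GFP gave 35, then 3, 6, 1, 3 to 11, and 51. UPF1-1 against UPF1-2 gave 887, then 0, 89, 0, 17 to 451, and 288. The isoform difference gave 1280, then 0, 0, 0, and 0 to 1104, and 810 with a pseudocount of 1. Upper quartile scaling turned the split of higher and lower calls from 781 and 726 to 638 and 976, from 512 and 375 to 347 and 591, and from 530 and 750 to 846 and 459 for UPF1-1 against GFP, UPF1-1 against UPF1-2 and the isoform difference. These fits differed in the libraries used or in the scale, and the cause of the changes was not tested. By role, leaving out the block lowered IP counts by over 1.5 times for the alpha ring (7 to 4 with UPF1-1, 6 to 3 with UPF1-2), and with UPF1-2 for the ATPases (4 to 1), the whole base (7 to 3), the regulatory particle (13 to 7) and CCT (4 to 2); the chaperones went from 2 to 1 with each isoform. Depth per library is not known from TPM, and PSMB10, at the lowest estimated count, had the largest standard error among core subunits in each fit.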
